A study of Mus musculus with 8 samples.

Results

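The genes described here encode the subunits of oxidative phosphorylation (OXPHOS) in mouse liver. They were chosen by name, as rows of the counts table annotated as protein coding whose symbol begins with mt-, Nduf (other than Ndufaf), Sdha to Sdhd, Uqcr, Cox4 to Cox8 or Atp5, with at least 1 CPM (counts scaled to a common library size) in at least 2 of the 8 libraries. Of the 49671 rows of the table, 98 had such a symbol and biotype, and 92 of these passed the filter on low values. The 92 members comprise 13 genes of mitochondrial DNA and 79 nuclear genes. The mitochondrial members code for 7 subunits of complex I, 1 of complex III, 3 of complex IV and 2 of complex V. The nuclear members number 38 for complex I, 4 for complex II, 8 for complex III, 12 for complex IV and 17 for complex V, and they are spread over 19 chromosomes.

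RNA-seq was performed on livers of post-weaning C57BL/6 mice of both sexes, either wild type (WT) or homozygous for an N-terminal deletion in Lbr (NT-KO), which codes for the lamin B receptor of the inner nuclear membrane. The sample labels give the strain as C57BL/6, and the study's reporting summary gives its laboratory animals as C57BL/6N. Each genotype was sequenced in 2 male and 2 female libraries, and all groups share the strain, the tissue and the age class. The deletion takes away the usual start of translation, is carried in every tissue and derives from a single founder male, which by the study's methods was bred to C57BL/6N females, so NT-KO stands for 1 allele in 1 line of mice. The labels do not say whether the libraries of a group came from separate animals, so the p-values below measure the spread between these libraries, which may be in part technical.

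The libraries held between 45020377 and 64396291 counts. A count of 3 corresponded to between 0.0441 and 0.0708 CPM. Lbr, counted over the whole gene, stood at 7.99 and 6.53 CPM in WT males, 12.8 and 13.6 CPM in NT-KO males, 7.43 and 6.96 CPM in WT females, and 13.1 and 14.04 CPM in NT-KO females. All NT-KO libraries lay above all WT libraries, and the log2 fold change over both sexes was 0.89 ± 0.12 (SE) with an adjusted p of 0.167 by edgeR's quasi-likelihood test. The count covers the whole gene, so it does not read the deletion and does not check the labels. Xist was between 788 and 967 CPM in the libraries labelled female and at most 3.21 CPM in those labelled male, and of Ddx3y, Uty, Kdm5d and Eif2s3y, which lie on the Y chromosome, none exceeded 0.153 CPM in the female libraries. The labelled tissue was checked with 10 hepatocyte genes, all tested, which summed to between 80209 and 113937 CPM with Alb, the gene of serum albumin, as the most abundant. None of 6 adipocyte genes and 2 of 8 striated muscle genes reached the filter.

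Oxidative phosphorylation takes place in the inner mitochondrial membrane. Complexes I and II take electrons from NADH and succinate, complex III passes them to cytochrome c, complex IV hands them to oxygen, and the proton gradient built on the way drives ATP synthesis in complex V. Most subunits come from nuclear genes and are imported, while a few hydrophobic core subunits are transcribed inside the organelle from both strands of its circular DNA as long precursors, and complex II has nuclear subunits only. Hepatocytes are rich in mitochondria, which also host the citric acid cycle, urea synthesis and fatty acid oxidation.

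The mitochondrial members fell into separate ranges of abundance. The mt-Co1 gene, for the catalytic core of complex IV (GRCm38 mitochondrial DNA, positions 5328 to 6872), had a mean of 17829 CPM over the 8 libraries, and mt-Cytb, for the cytochrome b of complex III, had 10434 CPM. The complex I genes ranged from a mean of 919 CPM for mt-Nd4l to 7775 CPM for mt-Nd4. In contrast, mt-Co2, mt-Co3 and mt-Atp6, which code for the other core subunits of complex IV and for the proton channel subunit of complex V, had means of 9.84, 12.98 and 9.87 CPM, and mt-Atp8, for a small membrane subunit of complex V, had 1.05 CPM. These 4 were low in all 8 libraries.

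Other rows of the same sequence held high counts. A block of 7 annotated pseudogenes on chromosome 1 (GRCm38 positions 24611535 to 24616197, 4663 bases, minus strand) repeats this stretch of mitochondrial DNA in the same gene order. Its rows Gm28661, Gm28437 and Gm10925 match mt-Co2, mt-Co3 and mt-Atp6 without a difference over 681, 783 and 678 aligned bases. They held from 440253 to 664712, from 715520 to 919951 and from 733376 to 1049735 counts in a library. A further row, Gm29216, holds the last part of mt-Co1 with 1 difference in 483 aligned bases, A1066T (the base of mt-Co1 first, its position counted from 1 at the start of mt-Co1, then the base of Gm29216), and had from 604448 to 1013012 counts. The copies Gm28438, Gm28439 and Gm10222 of mt-Nd3, mt-Nd4 and mt-Nd4l are identical over their aligned bases as well, but held at most 13514, 483 and 90 counts. The following stretches are shown because a read from them carries little or nothing that tells the chromosomes apart. The first pair gives the opening bases of mt-Co2 (chrM:7013-7072, plus strand) and Gm28661 (chr1:24615506-24615565, minus strand), and the second pair gives mt-Co1 (chrM:6390-6439, plus strand) and Gm29216 (chr1:24616139-24616188, minus strand) from the first aligned base, with the differing base in capitals.
mt-Co2: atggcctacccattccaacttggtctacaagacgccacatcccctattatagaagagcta
Gm28661: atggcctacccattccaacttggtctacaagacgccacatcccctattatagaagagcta
mt-Co1: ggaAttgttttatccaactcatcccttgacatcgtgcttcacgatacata
Gm29216: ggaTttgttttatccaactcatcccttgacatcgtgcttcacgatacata

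The gene mt-Atp8 (positions 7766 to 7969) has no annotated copy in the block. Between Gm10925 and Gm28661 lie 233 bases with 0 annotated genes, and the corresponding stretch of mitochondrial DNA, between the end of mt-Co2 and the start of mt-Atp6, has 230 bases. Moreover, 43 of its 204 bases lie within mt-Atp6. Over all 13 mitochondrial members, 7 had at least 50% of their 50-base stretches in the transcripts of another gene, whereas this held for 0 of the 79 nuclear members, whose median share was 2.49% and highest share 41.6%. The rule of the counting for reads that fit several places was not given in the sources used here. Values for mt-Co1, mt-Co2, mt-Co3, mt-Atp6 and mt-Atp8 are therefore uncertain as levels. With the chromosome 1 rows added, the means over the 8 libraries were 31684 CPM for mt-Co1, 9929 CPM for mt-Co2, 14787 CPM for mt-Co3 and 15617 CPM for mt-Atp6, while mt-Atp8 had no row to add.

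**Figure D1:**
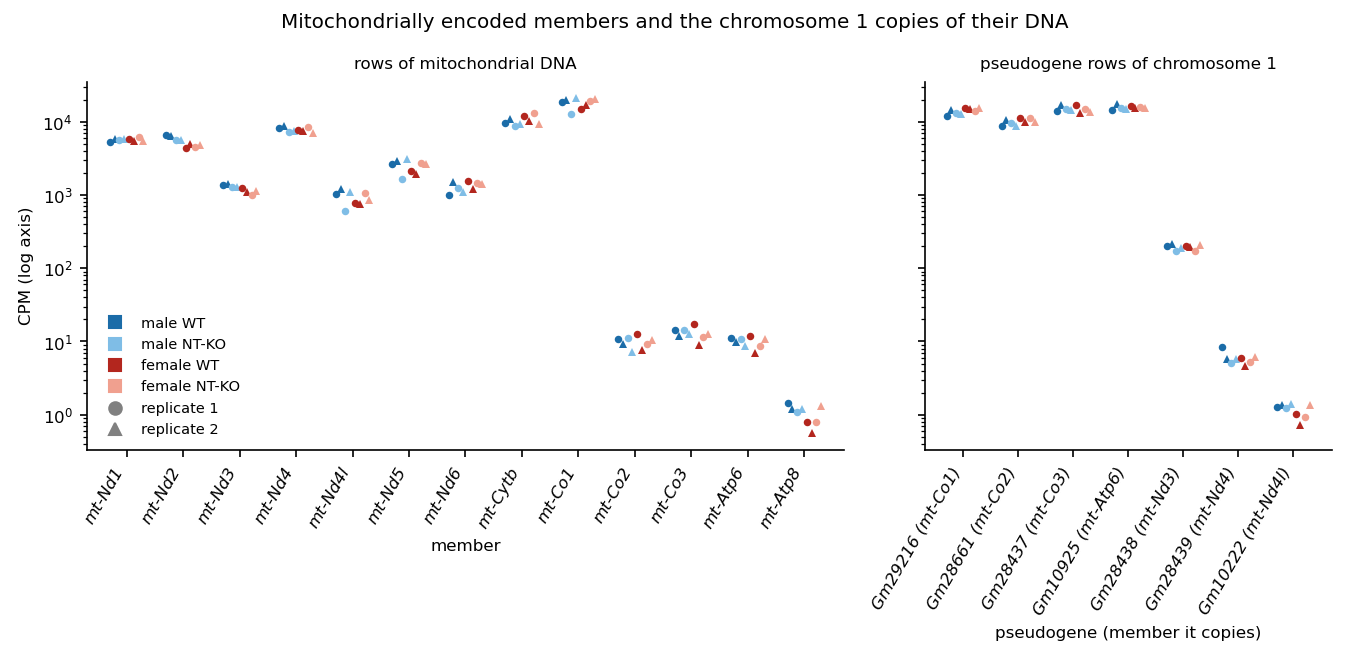
CPM on a log axis of the 13 mitochondrial members (left) and of the 7 pseudogene rows of chromosome 1 that copy them (right), with 1 point per library (colour for group, circle for replicate 1, triangle for replicate 2). The members mt-Co2, mt-Co3, mt-Atp6 and mt-Atp8 lie below 20 CPM in all 8 libraries, while the copies Gm29216, Gm28661, Gm28437 and Gm10925 lie above 8000 CPM.

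Summed over the 13 mitochondrial members as counted, the libraries stood at 53783 and 58324 CPM in WT males, 44853 and 55550 CPM in NT-KO males, 50519 and 50232 CPM in WT females, and 57948 and 52990 CPM in NT-KO females. The NT-KO male pair spanned most of the range of all libraries, with replicate 1 the lowest of the 8. The NT-KO female pair lay above the WT female pair, and in males the genotypes overlapped only through NT-KO male replicate 2, which stood between the WT libraries. The chromosome 1 copies added from 49266 to 59795 CPM, a sum of like size. With all pseudogene rows that mostly consist of a member's sequence added to it (chosen after seeing the data), the sums were 103049 and 117365 CPM in WT males, 97891 and 106025 CPM in NT-KO males, 110314 and 103647 CPM in WT females, and 113422 and 107327 CPM in NT-KO females. Both sexes then had overlapping genotypes.

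The 79 nuclear members together varied far less. They summed to 13477 and 13802 CPM in WT males, 13856 and 13349 CPM in NT-KO males, 14455 and 13264 CPM in WT females, and 13967 and 13733 CPM in NT-KO females, with overlap between genotypes in both sexes. The log2 ratio of the mitochondrial to the nuclear sum was 2.04 ± 0.06 (SD, n = 2) in WT males, 1.88 ± 0.26 in NT-KO males, 1.86 ± 0.08 in WT females and 2.00 ± 0.07 in NT-KO females. With the pseudogene rows added the means were 3.00, 2.89, 2.93 and 2.98. In a bulk liver sample, fewer mitochondria-rich cells and less such RNA per cell cannot be told apart.

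**Figure D2:**
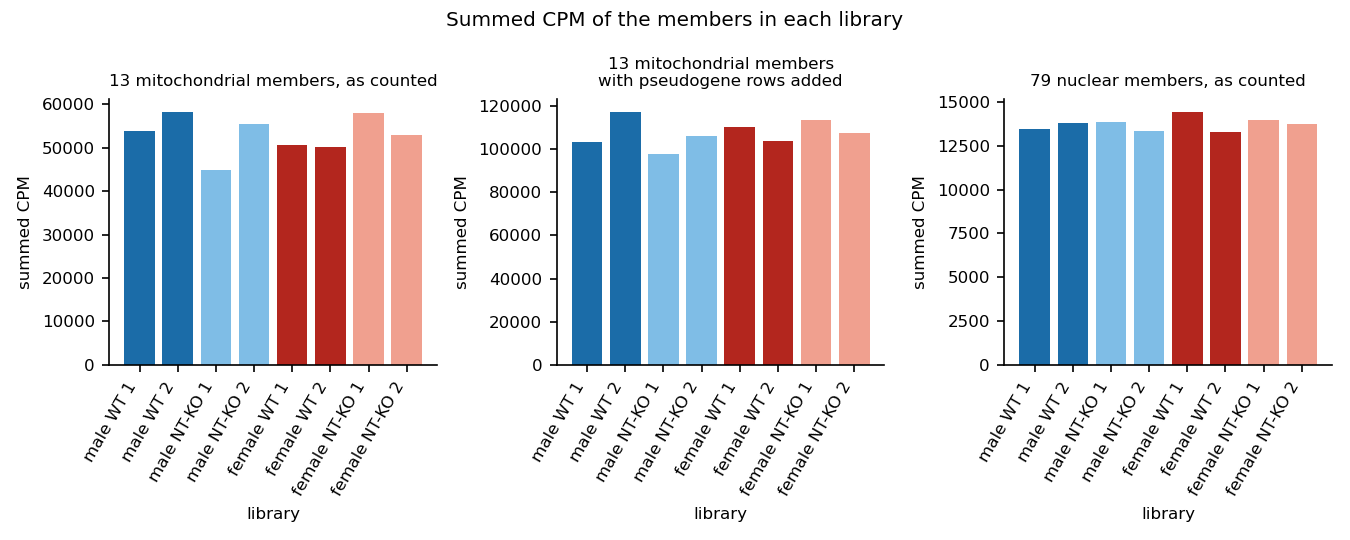
Summed CPM in each library (bars from 0, colour for group) of the 13 mitochondrial members as counted, of the same members with the pseudogene rows added, and of the 79 nuclear members as counted. The nuclear sum stays between 13264 and 14455 CPM, while the mitochondrial sum as counted runs from 44853 CPM in NT-KO male replicate 1 to 58324 CPM in WT male replicate 2.

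Levels were compared between genes per length, in TPM, the count divided by the length of a gene's exons and scaled to the same total in every library. The mitochondrial complex I genes had a median of 6474 TPM, against 113 TPM for the 38 nuclear complex I genes. Among nuclear members the median was 196 TPM for complex II, 328 TPM for complex III, 328 TPM for complex IV and 176 TPM for complex V. The highest nuclear members were Cox6b1, a complex IV subunit of the intermembrane face, at 586 ± 71.6 TPM (SD, n = 8 libraries), Uqcr11, a small subunit of complex III, at 563 ± 65.0 TPM, and Atp5a1, the alpha subunit of the catalytic head of complex V, at 519 ± 61.6 TPM. The next was Cox8a at 519 ± 78.7 TPM, and each of the 4 lay within 1 SD of its neighbour in this order. The order depended on the group and on the length used. Cox6b1 was highest in WT males (523 TPM) and NT-KO females (663 TPM), whereas Ndufa4 led in NT-KO males (537 TPM, beside 528 TPM for Cox6b1) and Uqcr11 in WT females (642 TPM, beside 632 TPM). With the longest transcript as length the highest were Ndufa4 at 964 TPM, Atp5g3 at 952 TPM and Atp5b at 834 TPM, while the lowest were the same 3 genes as here. With the exon length the lowest nuclear members, in the same order in each of the 4 groups, were Ndufa4l2 at 1.87 ± 0.70 TPM, Cox7a1 at 4.13 ± 1.28 TPM and Atp5s at 5.05 ± 1.19 TPM, of which the last pair lay within 1 SD. As counted, among mitochondrial members mt-Co1 had 21513 ± 4094 TPM, mt-Cytb 16983 ± 3008 TPM and mt-Nd1 11028 ± 946 TPM, while mt-Atp8, mt-Co2 and mt-Atp6 stood at 9.45 ± 2.57, 26.6 ± 4.83 and 26.8 ± 4.06 TPM. This order turned when the chromosome 1 rows were added. Per 1000 bases of exon, mt-Atp6 then came first with 22932 CPM, followed by mt-Co1 with 20507, mt-Co3 with 18861, mt-Co2 with 14516 and mt-Cytb with 9121 CPM, and mt-Atp8 was last with 5.13 CPM. The gene mt-Nd6 alone is read from the other strand of mitochondrial DNA. It had 4701 ± 802 TPM, and since no strand setting of the counting was given, its reads cannot be told apart from those of the transcripts opposite to it.

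Several subunits exist as isoforms from paralogous genes, some of which are known from heart and skeletal muscle. In these livers the general isoform of each complex IV subunit was the abundant one. Cox4i1 had a mean of 457 TPM against 0.293 TPM for Cox4i2, Cox6a1 had 487 TPM against 0.0814 TPM for Cox6a2, Cox6b1 had 586 TPM against 0.424 TPM for Cox6b2, and Cox8a had 519 TPM against 0.241 TPM for Cox8b. Cox7a2 had 397 TPM, its relative Cox7a2l had 126 TPM, and the heart and muscle isoform Cox7a1 had 4.13 TPM. The ranges of the paired isoforms did not overlap in any library. The 6 genes that did not pass the filter were Cox4i2, Cox6a2, Cox6b2, Cox8b, Cox7b2 and Cox8c, and the last pair had 0 counts in every library, which allows up to between 0.0441 and 0.0708 CPM in a library (counting error only). Atp5g1, Atp5g2 and Atp5g3 code for the same mature ring subunit of complex V behind different import sequences. Atp5g3 led with 383 TPM (from 349 to 422), followed by Atp5g1 with 68.4 TPM (from 56.7 to 82.5) and Atp5g2 with 47.6 TPM (from 37.0 to 56.3), and Atp5g2 lay below the lowest Atp5g1 level in all 8 libraries. The order of this pair turned with the longest transcript as length, to 87.3 TPM for Atp5g2 and 58.7 TPM for Atp5g1, behind 952 TPM for Atp5g3. Ndufa4, a small subunit named for complex I and also found with complex IV, had 516 TPM, and its relative Ndufa4l2 had 1.87 TPM.

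**Figure D3:**
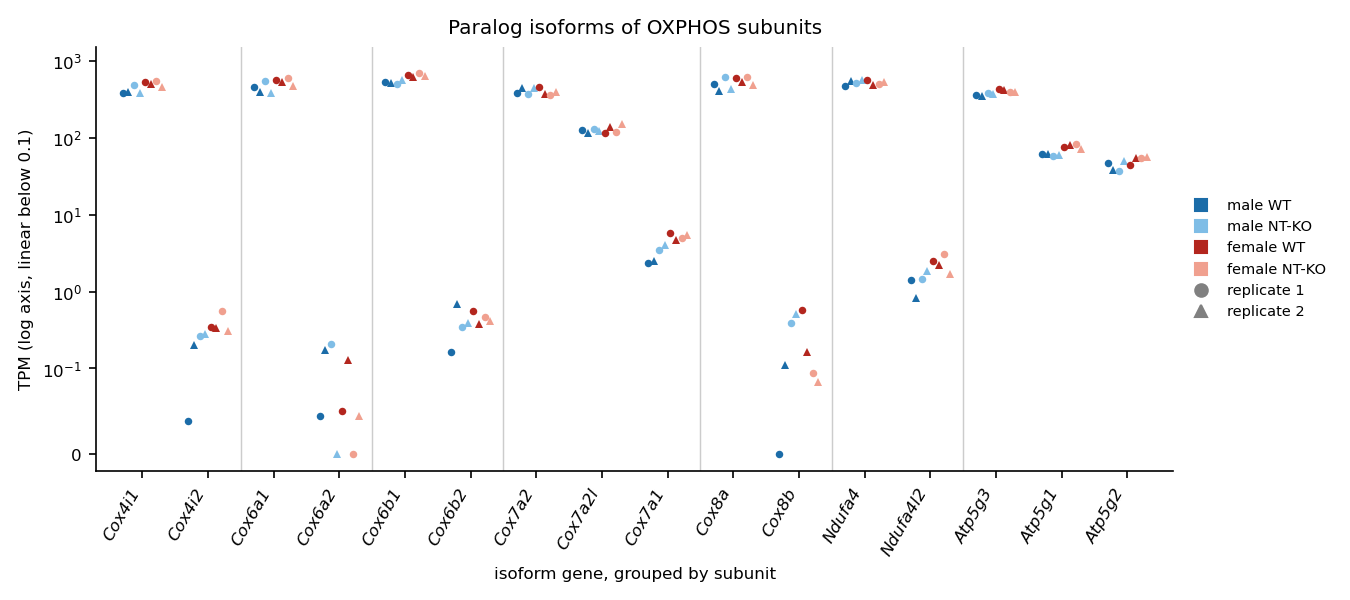
TPM of 16 paralogous isoform genes grouped by subunit, on an axis that is logarithmic above 0.1 and linear below, with 1 point per library (colour for group, shape for replicate). Cox4i1, Cox6a1, Cox6b1, Cox7a2 and Cox8a lie above 300 TPM in all libraries, while Cox4i2, Cox6a2, Cox6b2 and Cox8b lie below 1 TPM and Cox7a1 between 2.34 and 5.68 TPM.

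The first comparison asked whether the Lbr deletion goes with a change of OXPHOS transcripts in males. It gave no called member in either genome. By edgeR's quasi-likelihood test on all 13130 tested genes, 0 of 92 members had an adjusted p of at most 0.05 in males (0.0152% of all tested genes), and 0 had an unadjusted p under 0.05 (11.5% of all tested genes). The likelihood ratio test and DESeq2 called 0 members as well (1.93% and 2.35% of all tested genes). In males the log2 fold change of NT-KO to WT had a median of 0.02 over the nuclear members, with 46 higher and 33 lower, and of -0.17 over the mitochondrial members, with 2 higher and 11 lower, beside a median of 0.01 over all tested genes. Without normalization factors 65 nuclear members were higher and 14 lower, and the mitochondrial split was the same. The nuclear split rested on single libraries, with 29 of 79 higher without WT male replicate 1 and 36 without NT-KO male replicate 1. The middle 50% of the members spanned 0.15 log2 units against 0.42 for all tested genes, and 1 member against 17.9% of all genes differed by more than 0.5. These sets were not matched for abundance. At least 10 CPM was reached by 76 of the 79 nuclear members and by 7428 of the 13130 tested genes. The 95% intervals were within 1 log2 unit of 0 for 88 of the 92 members and within 0.5 for 41.

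Among the mitochondrial members, mt-Nd4l, for a small membrane subunit of complex I, stood at 1022 and 1188 CPM in WT males and at 599 and 1091 CPM in NT-KO males, a log2 fold change of -0.39 ± 0.29 (SE). The NT-KO libraries of mt-Nd4l lay far apart, and replicate 2 lay within the WT range. The complex I gene mt-Nd5 showed the same order, with 2679 and 2933 CPM in WT males and 1653 and 3067 CPM in NT-KO males, and so did mt-Co1, with 18204 and 19415 CPM in WT and 12671 and 20800 CPM in NT-KO. For both, the NT-KO libraries as counted lay on either side of the WT pair. With the rows of Gm29216 added, mt-Co1 had 30132 and 33673 CPM in WT males and 25672 and 33299 CPM in NT-KO males, so that replicate 2 lay within the WT pair. Without NT-KO male replicate 1 the fold changes of mt-Nd4l, mt-Nd5 and mt-Co1 as counted were -0.02, 0.13 and 0.14, and without replicate 2 they were -0.89, -0.77 and -0.58. The genes mt-Nd2, mt-Nd4 and mt-Cytb behaved differently, since the NT-KO pair was lower in both libraries. For mt-Nd2 the values were 6466 and 6399 CPM in WT males and 5662 and 5642 CPM in NT-KO males (log2 fold change -0.19 ± 0.18). For mt-Cytb they were 9636 and 10956 CPM in WT and 8766 and 9325 CPM in NT-KO (-0.19 ± 0.23, and -0.091 without WT male replicate 2). In males 5 of the 13 mitochondrial members (mt-Atp8, mt-Cytb, mt-Nd2, mt-Nd3 and mt-Nd4) had both NT-KO libraries below both WT libraries, 38.5% against 19.3% of all tested genes, and 0 had them above, against 19.6%. Of these, mt-Atp8 was separated only by 1.18 CPM in NT-KO against 1.20 CPM in WT. With the pseudogene rows added, 12 of 13 were lower in males, with a median of -0.13 and a smallest adjusted p of 0.653 by the quasi-likelihood test.

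The nuclear members of NT-KO male livers lay on both sides of the WT levels in each complex, with median log2 fold changes from 0.00 for complexes III and IV to 0.04 for complex I. Complex I had 24 of 38 genes higher and ran from -0.28 for Ndufb3 to 0.43 for Ndufa4l2, and the 95% intervals of 40 of the 79 nuclear members were within 0.5. Without normalization factors the nuclear median was 0.085. Ndufs1, the largest iron-sulfur subunit of complex I, stood at 113 and 106 CPM in WT males and at 86.9 and 139 CPM in NT-KO males, a log2 fold change of 0.04 ± 0.23. Sdha, the flavoprotein of complex II, had 480.02 and 413 CPM in WT and 352 and 469 CPM in NT-KO (-0.12 ± 0.23). Uqcrc2, a core subunit of complex III, had 236 and 226 CPM in WT and 159 and 259 CPM in NT-KO (-0.14 ± 0.24). In each of these 3 genes NT-KO replicate 1 lay below the WT pair, while replicate 2 lay above it for Ndufs1 and Uqcrc2 and within it for Sdha. Cox4i1, a regulatory subunit of complex IV, ran the other way, with 341 and 361 CPM in WT and 429 and 306 CPM in NT-KO (0.07 ± 0.22). Atp5b, the catalytic beta subunit of complex V, had 1171 and 1044 CPM in WT and 1007 and 1022 CPM in NT-KO (-0.13 ± 0.18), and its groups did not overlap, though its fold change was -0.048 without WT male replicate 1. With NT-KO male replicate 1 left out, the fold changes of Sdha, Uqcrc2 and Cox4i1 were 0.070, 0.16 and -0.20, and with replicate 2 left out that of Ndufs1 was -0.34.

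The 3 members with the smallest p in males did not pass. Atp5s, which codes for a factor linked to complex V, had 3.79 and 4.29 CPM in WT males and 5.86 and 5.15 CPM in NT-KO males, a log2 fold change of 0.45 ± 0.20 with an adjusted p of 0.448 by edgeR's quasi-likelihood test. Ndufb3, an accessory subunit of complex I, had 61.3 and 71.5 CPM in WT and 52.2 and 56.8 CPM in NT-KO, which gave a log2 fold change of -0.28 ± 0.16 with an adjusted p of 0.532, and it was -0.17 without WT male replicate 2. Cox7a1 had 0.724 and 0.802 CPM in WT and 1.08 and 1.11 CPM in NT-KO, which gave a log2 fold change of 0.52 ± 0.29 with an adjusted p of 0.540. The groups did not overlap in any of these 3 genes. In males 6 nuclear members were higher and 7 lower without overlap, 7.59% and 8.86% against 19.6% and 19.3% of all tested genes.

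In females the deletion again gave no called member. By edgeR's quasi-likelihood test 0 of 92 had an adjusted p of at most 0.05 (0.00762% of all tested genes), and 0 had an unadjusted p under 0.05 (1.54% of all tested genes). The likelihood ratio test and DESeq2 called 0 too (0.0838% and 0.0381% of all tested genes). The log2 fold change in females had a median of -0.04 over the nuclear members, with 28 higher and 51 lower, and of 0.03 over the mitochondrial members, with 10 higher and 3 lower (8 and 5 without normalization factors), beside a median of 0.00 over all tested genes. The nuclear split turned to 61 higher and 18 lower without WT female replicate 1 and to 43 and 36 without NT-KO female replicate 2. The intervals were within 1 log2 unit for 88 members and within 0.5 for 35.

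Of the mitochondrial members in females, mt-Nd5 had 2140 and 1948 CPM in WT and 2734 and 2610 CPM in NT-KO, which gave a log2 fold change of 0.39 ± 0.28. The values of mt-Co1 were 14796 and 16995 CPM in WT females and 19198 and 20555 CPM in NT-KO (0.32 ± 0.25), and those of mt-Nd4l were 774 and 747 CPM in WT and 1075 and 860 CPM in NT-KO (0.35 ± 0.29, and 0.18 without NT-KO female replicate 1). With the rows of Gm29216 added, mt-Co1 stood closer between the genotypes, at 29999 and 31879 CPM in WT females and 33125 and 35690 CPM in NT-KO females. In mt-Nd5, mt-Co1 and mt-Nd4l as counted, both NT-KO libraries lay above both WT libraries. In females 4 of 13 mitochondrial members (mt-Atp8, mt-Co1, mt-Nd4l and mt-Nd5) did so, 30.8% against 12.2% of all tested genes, and 0 had both NT-KO libraries below, against 14.2%. Of these, mt-Atp8 was separated only by 0.790 CPM in NT-KO against 0.787 CPM in WT. The gene mt-Cytb, by contrast, had 12055 and 10315 CPM in WT and 13216 and 9205 CPM in NT-KO, with the NT-KO libraries on either side. With the pseudogene rows added, 9 of 13 were higher and 4 lower, with a median of 0.02. The split as counted rested on single libraries, with 5 of 13 higher and a median of -0.0050 without WT female replicate 2, and 11 higher and a median of 0.25 without WT female replicate 1.

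The smallest p in females belonged to mt-Atp8, with 0.787 and 0.558 CPM in WT and 0.790 and 1.33 CPM in NT-KO, which gave a log2 fold change of 0.67 ± 0.36 with an adjusted p of 1 by edgeR's quasi-likelihood test. These were 43 and 38 counts against 45 and 87, and the fold change was 0.24 without NT-KO female replicate 2. The complex IV subunit gene Cox7c had 232 and 179 CPM in WT females and 171 and 155 CPM in NT-KO (-0.33 ± 0.19), and Ndufb2, an accessory subunit of complex I, had 35.0 and 28.5 CPM in WT and 26.2 and 24.4 CPM in NT-KO (-0.33 ± 0.21). Neither passed, and in both the pair of WT libraries lay above the NT-KO pair with replicate 1 of WT the highest of the 8 libraries. Without WT female replicate 1 their fold changes were -0.13 and -0.17. All 4 complex II genes were higher in NT-KO females, with a median log2 fold change of 0.14, and none passed. Sdha had 325 and 422 CPM in WT females and 385 and 479.01 CPM in NT-KO females (0.21 ± 0.23), so its groups overlapped, and its fold change was 0.033 without WT female replicate 1. Uqcrc2 of complex III had 174 and 193 CPM in WT and 208 and 250.8 CPM in NT-KO (0.32 ± 0.24), without overlap, and its fold change was 0.18 without NT-KO female replicate 2.

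**Figure D4:**
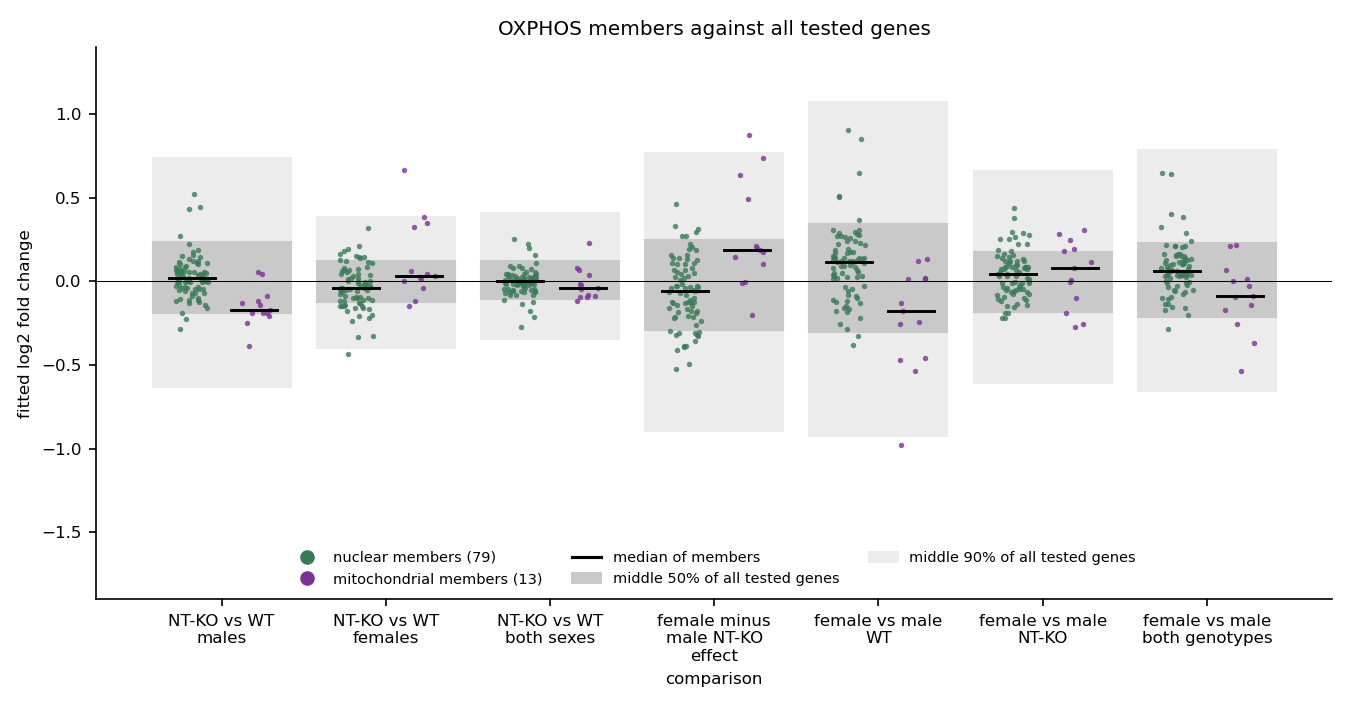
Fitted log2 fold changes of the 79 nuclear members and the 13 mitochondrial members in 7 comparisons, with 1 point per gene, black bars for the medians of the members, and grey bands for the middle 50% and the middle 90% of all 13130 tested genes. The mitochondrial median is -0.17 in males and 0.03 in females for NT-KO against WT, and -0.18 for females against males in WT, while the nuclear medians lie between -0.06 and 0.12.

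Over both sexes together, 0 of 92 members were called for NT-KO against WT by edgeR's quasi-likelihood test (0.0152% of all tested genes), and 0 had an unadjusted p under 0.05 (5.42%). The likelihood ratio test and DESeq2 called 0 (0.388% and 0.472% of all tested genes). The intervals of all 92 members lay within 1 log2 unit of 0, and those of 83 within 0.5. The medians were 0.00 for the nuclear members, with 39 higher and 40 lower (52 and 27 without normalization factors), and -0.04 for the mitochondrial members, with 4 higher and 9 lower (6 and 7). Both splits turned without WT female replicate 1, to 59 of 79 nuclear members higher with a median of 0.054 and 8 of 13 mitochondrial members higher with a median of 0.054. No member had all 4 NT-KO libraries above or below all 4 WT libraries, against 0.366% and 0.586% of all tested genes. The members with the smallest p were Ndufb3 (-0.21 ± 0.11, adjusted p of 0.960 by the quasi-likelihood test), Atp5s (0.20 ± 0.14) and Ndufs5, a complex I subunit of the intermembrane face (-0.28 ± 0.20). The fold change of Ndufs5 was -0.11 without NT-KO female replicate 2 and -0.49 without NT-KO female replicate 1. Of the 50-base stretches of Ndufs5, 21.7% also occur in another gene. A pseudogene of it on chromosome 16, BC002163, had 12.3 and 13.7 CPM in WT males, 18.4 and 23.7 CPM in NT-KO males, 20.7 and 14.6 CPM in WT females, and 34.7 and 24.3 CPM in NT-KO females, higher in NT-KO within each sex without overlap. When its counts were added, the fold change of Ndufs5 turned from -0.28 to 0.04.

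The difference of the NT-KO effect between the sexes was tested itself. By edgeR's quasi-likelihood test 0 of 92 members passed (0.0152% of all tested genes), and 0 had an unadjusted p under 0.05 (7.20%). The likelihood ratio test and DESeq2 called 0 (0.35% and 0.472% of all tested genes). The female minus male effect had a median of 0.19 over the mitochondrial members, with 10 of 13 above 0, and of -0.06 over the nuclear members, with 30 of 79 above 0 (20 without normalization factors). Without WT female replicate 2 the mitochondrial median was 0.082 with 7 of 13 above 0, and without WT female replicate 1 the nuclear median was 0.043 with 49 of 79 above 0 (41 without NT-KO male replicate 1). The members with the smallest p were mt-Nd4l (0.73 ± 0.41, adjusted p of 0.721 by the quasi-likelihood test), Atp5s (-0.49 ± 0.28) and mt-Atp8 (0.87 ± 0.51). The value for mt-Nd4l was 0.38 without NT-KO male replicate 1 and 1.24 without NT-KO male replicate 2, and that for mt-Atp8 was 0.45 without NT-KO female replicate 2. The intervals of this difference were wide, with a median of 0.61 log2 units to either side of the estimate.

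Next, females were compared with males. By edgeR's quasi-likelihood test 0 of 92 members were called in WT (6.41% of all tested genes), 0 in NT-KO (1.86%) and 0 over both genotypes (7.81%). An unadjusted p under 0.05 was seen for 7 members in WT (27.0% of all tested genes), 0 in NT-KO (9.80%) and 6 over both genotypes (26.9%). The likelihood ratio test called 0 in each (13% of all tested genes in WT, 3.56% in NT-KO and 13.4% over both genotypes). DESeq2 called mt-Nd2 and Ndufa7 in WT (13.7% of all tested genes), 0 in NT-KO (3.66%) and mt-Nd2 over both genotypes (14.1%). As a check on large sex differences, 10 of 10 genes known as female-biased in liver and 10 of 10 known as male-biased were called in their known direction over both genotypes. Their median log2 fold changes were 9.55 and -4.38. The members ran from -0.54 to 0.64 in that comparison, so the check does not cover changes of their size. The nuclear members had a median log2 fold change of female to male of 0.06 over both genotypes, with 58 of 79 higher, and the mitochondrial members of -0.09, with 5 of 13 higher. Without WT female replicate 1 the nuclear median was 0.0020, with 41 of 79 higher, and the mitochondrial median was -0.17, whereas without WT female replicate 2 the latter was -0.014. The split also moved with the scaling. Without normalization factors the median of all tested genes shifted by 0.13 over both genotypes, by 0.17 in WT and by 0.08 in NT-KO, and 72 of 79 nuclear and 8 of 13 mitochondrial members were then higher in females over both genotypes.

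The complex I gene mt-Nd2 had 6466 and 6399 CPM in WT males, 5662 and 5642 CPM in NT-KO males, 4381 and 4913 CPM in WT females, and 4569 and 4805 CPM in NT-KO females. All 4 male libraries lay above all 4 female libraries, and the log2 fold change of -0.37 ± 0.13 over both genotypes had an adjusted p of 0.109 by edgeR's quasi-likelihood test. For mt-Nd3, a small membrane subunit of complex I, the male libraries ran from 1266 to 1414 CPM and the female ones from 1000.3 to 1236 CPM (-0.25 ± 0.13). These were 2 of 13 mitochondrial members lower in females without overlap, 15.4% against 7.61% of all tested genes.

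Of the nuclear members, Cox7a1 had the smallest p over both genotypes. It stood at 0.724 and 0.802 CPM in WT males, 1.08 and 1.11 CPM in NT-KO males, 1.61 and 1.25 CPM in WT females, and 1.37 and 1.47 CPM in NT-KO females. All female libraries were above all male libraries (log2 fold change 0.64 ± 0.20, adjusted p of 0.0892 by edgeR's quasi-likelihood test). The striated muscle gene Acta1 was between 0 and 0.549 CPM in 6 libraries and at 1.23 and 3.64 CPM in NT-KO females. It was called higher in females over both genotypes by the quasi-likelihood test, the likelihood ratio test and DESeq2 (7.81%, 13.4% and 14.1% of all tested genes). The 2 tested muscle genes were both higher in that comparison, with a median of 2.74. The part of such tissue in Cox7a1 was not tested. Ndufa7, an accessory subunit of complex I, had 83.9 and 90.4 CPM in WT males and 127 and 120.1 CPM in WT females (0.51 ± 0.16, adjusted p of 0.0903), but 102 and 88.0 CPM in NT-KO males and 99.5 and 111 CPM in NT-KO females, where the sexes overlapped. Atp5s had 3.79 and 4.29 CPM in WT males and 6.90 and 5.77 CPM in WT females (0.65 ± 0.20, adjusted p of 0.0885). Cox5a, a matrix-side subunit of complex IV, was the only nuclear member lower in all female libraries, with 77.0 to 87.6 CPM in males and 66.4 to 72.0 CPM in females (-0.28 ± 0.10), which is 1.27% of the nuclear members against 7.61% of all tested genes. Ndufa3, Sdhc and Cox7a1 were the nuclear members higher in all female libraries, 3.80% against 8.48% of all tested genes. In NT-KO the smallest p belonged to Atp5g1 (0.29 ± 0.16), Ndufa10 (0.29 ± 0.17) and Atp5g2 (0.25 ± 0.17), none of which passed. Their fold changes were 0.17 without NT-KO female replicate 1, 0.16 without NT-KO male replicate 2 and 0.13 without NT-KO male replicate 1.

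The X-linked members are Ndufa1 (GRCm38 chrX:37187588-37191163) and Ndufb11 (chrX:20615326-20617619), both for accessory subunits of complex I, and Cox7b (chrX:106015700-106022450) for a subunit of complex IV. Ndufa1 had 76.0 and 92.8 CPM in WT males, 90.04 and 85.2 CPM in NT-KO males, 105 and 75.5 CPM in WT females, and 87.4 and 74.1 CPM in NT-KO females. The sexes overlapped, and the log2 fold change of female to male over both genotypes was -0.01 ± 0.14 for Ndufa1, 0.04 ± 0.13 for Ndufb11 and 0.04 ± 0.13 for Cox7b. Their intervals reached from -0.34 to 0.32, from -0.27 to 0.34 and from -0.27 to 0.34. For NT-KO against WT in females the values were -0.16 ± 0.20, -0.15 ± 0.19 and -0.11 ± 0.19, each of which changed sign without WT female replicate 1.

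The members also varied together within groups. Expressed as the median deviation of log2 CPM from each gene's mean over the 8 libraries, the nuclear members stood at -0.08 and 0.00 in WT males, 0.02 and -0.07 in NT-KO males, 0.16 and -0.05 in WT females, and 0.05 and -0.04 in NT-KO females. The span between the WT female replicates exceeded the range of the 4 group means. The 45 nuclear members whose longest transcript is under 1000 bases (a division made after seeing the data) carried more of this than the 34 longer ones. Short members deviated by -0.12 and 0.02 in WT males, 0.05 and -0.09 in NT-KO males, 0.22 and -0.04 in WT females, and 0.06 and -0.08 in NT-KO females. The 450 other tested genes with transcripts as short and a mean of at least 10 CPM ran in parallel, with -0.13 and 0.05, 0.10 and -0.12, 0.16 and -0.02, and 0.05 and -0.07. Longer members moved between -0.07 and 0.06.

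Complex II ran the other way. Its 4 genes deviated by 0.03 and -0.11 in WT males, -0.16 and 0.13 in NT-KO males, -0.13 and 0.03 in WT females, and -0.01 and 0.19 in NT-KO females. The 18 genes of the citric acid cycle, in which complex II is also an enzyme, moved with it, at 0.14 and -0.02, -0.25 and 0.10, -0.16 and 0.00, and 0.09 and 0.17. The mitochondrial members deviated by 0.15 and 0.15 in WT males, 0.00 and 0.03 in NT-KO males, 0.03 and -0.17 in WT females, and 0.11 and -0.03 in NT-KO females. Both WT males lay above both NT-KO males, but with the pseudogene rows added they stood at -0.066 and 0.20 against -0.033 and 0.033. Over the members with at least 10 CPM, the median SD of log2 CPM across the 8 libraries was 0.15 for 76 nuclear members, 0.22 for 10 mitochondrial members and 0.22 for all 7428 such genes.

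**Figure D5:**
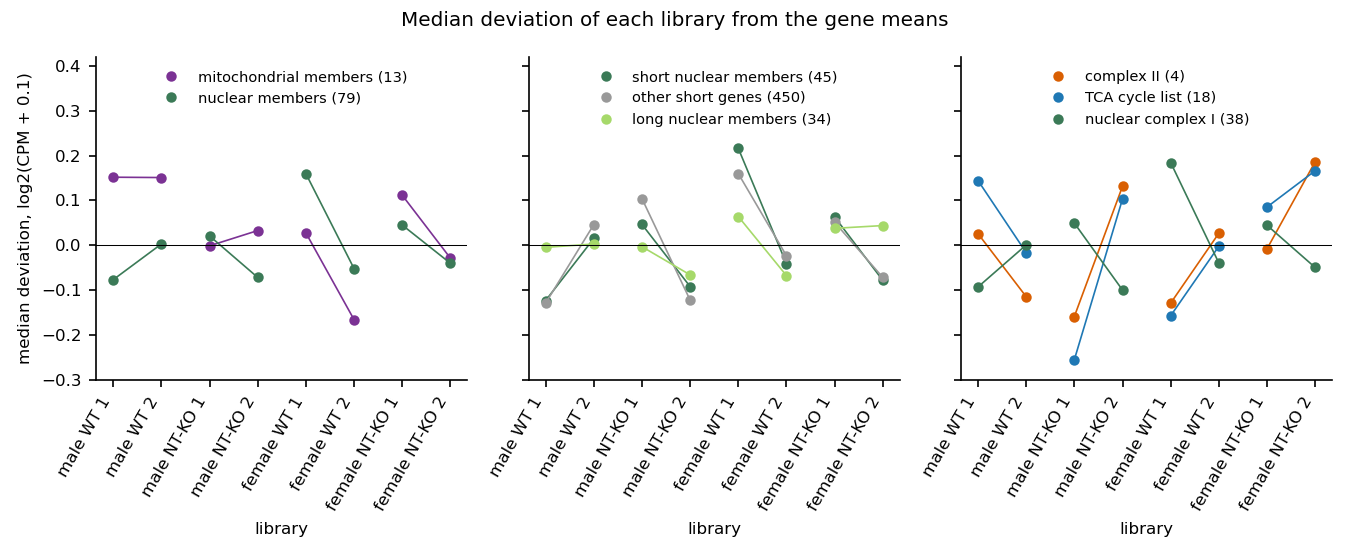
Median deviation of log2(CPM + 0.1) from each gene's mean over the 8 libraries, with lines joining the replicates of a group: mitochondrial and nuclear members (left), short and long nuclear members beside other short genes (middle), and complex II, the citric acid (TCA) cycle list and nuclear complex I (right). Short members follow the other short genes, from -0.12 and -0.13 in WT male replicate 1 to 0.22 and 0.16 in WT female replicate 1, while complex II and the cycle genes lie high in NT-KO replicate 2 of both sexes, where nuclear complex I lies low.

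The genes around the complexes were taken from lists chosen with earlier results known. None of 45 tested assembly factors, 31 genes of mitochondrial DNA expression and maintenance, 12 nuclear regulators, 11 electron carriers and partners, 18 citric acid cycle genes and 20 genes of the outer membrane and mitochondrial mass was called for NT-KO against WT in males, in females, over both sexes or for the difference between them, by edgeR's quasi-likelihood test. The likelihood ratio test and DESeq2 called 1 of these genes, Esrrg, in males (1.93% and 2.35% of all tested genes), over both sexes (0.388% and 0.472%) and for the difference (0.350% and 0.472%). An unadjusted p under 0.05 was seen in males for 1, 2, 2, 0, 0 and 1 of them (11.5% of all tested genes) and in females for 0 in each list (1.54%). The citric acid cycle genes were lower in NT-KO males for 17 of 18, with 1 higher and a median log2 fold change of -0.10, and higher in NT-KO females for 18 of 18, with a median of 0.15, while 51.7% and 50.2% of all tested genes were higher in NT-KO males and females. The male libraries did not stand apart by genotype, since the median deviation of the list was 0.14 and -0.02 in WT replicates 1 and 2 and -0.25 and 0.10 in NT-KO replicates 1 and 2. Without NT-KO male replicate 1, 10 of the 18 were lower and the median was -0.02, without WT male replicate 1 these were 11 and -0.06, and without NT-KO male replicate 2 they were 16 and -0.33. In females between 14 and 16 of the 18 were higher with 1 library left out, and the median ranged from 0.073 without WT replicate 1 to 0.25 without WT replicate 2. Among the regulators, Tfam, which packs and transcribes mitochondrial DNA, had 34.7 and 36.0 CPM in WT males and 40.3 and 41.4 CPM in NT-KO males (0.21 ± 0.14), without overlap, and 41.9 and 40.4 CPM against 38.8 and 45.2 CPM in females (0.03 ± 0.14). The mitochondrial RNA polymerase gene Polrmt (-0.07 ± 0.20 in males, -0.02 ± 0.20 in females), the RNA-stabilising Lrpprc (-0.14 ± 0.17 and 0.21 ± 0.17), and the transcriptional regulators Nrf1 (-0.06 ± 0.21 and -0.04 ± 0.21), Gabpa (0.02 ± 0.23 and 0.10 ± 0.23), Esrra (0.02 ± 0.16 and 0.18 ± 0.16) and Ppargc1a (-0.14 ± 0.30 and 0.03 ± 0.29) did not pass either. Esrrg, an orphan receptor related to Esrra, had 0.212 and 0.118 CPM in WT males, 1.26 and 2.02 CPM in NT-KO males, 3.86 and 2.63 CPM in WT females, and 4.42 and 6.29 CPM in NT-KO females. It was higher in females over both genotypes (2.97 ± 0.29, adjusted p of 0.000642 by the quasi-likelihood test), and for NT-KO against WT in males its log2 fold change of 3.26 ± 0.45 did not pass that test (adjusted p of 0.098) but passed the other tests.

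Other called genes of these lists were seen between the sexes. Idh2, the NADP-dependent isocitrate dehydrogenase of the matrix, had 65.3 to 76.6 CPM in males and 116 to 143 CPM in females (log2 fold change 0.87 ± 0.12 over both genotypes, adjusted p of 0.00408 by edgeR's quasi-likelihood test). Atpif1, which codes for an inhibitor of complex V when it runs backwards, had 7.55 to 11.2 CPM in males and 13.3 to 16.5 CPM in females (0.75 ± 0.14, adjusted p of 0.0192). The assembly factors, the mitochondrial DNA genes and the genes of the outer membrane and mitochondrial mass had 0 called members between the sexes over both genotypes, and 7, 4 and 2 with an unadjusted p under 0.05 (26.9% of all tested genes). The likelihood ratio test and DESeq2 called 1 of them, Top1mt, the topoisomerase of mitochondrial DNA (13.4% and 14.1% of all tested genes). In WT both tests called Slc25a4 of the list for the outer membrane and mitochondrial mass, and DESeq2 called the assembly factor Cox17 (13% and 13.7% of all tested genes). Of the citric acid cycle genes, both tests called Fh1 over both genotypes (13.4% and 14.1% of all tested genes), and Fh1 and Pdhx in WT (13% and 13.7%), besides Idh2.

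Nuclear OXPHOS genes are known as targets of the transcription factors NRF1, GABPA (an ETS factor) and YY1. Of the 79 nuclear members, 66 matched a promoter window of RefSeq (GRCm38.p6, 250 bases before to 50 after the start), in 71 windows. The NRF1 palindrome in its exact form, which stands in capitals below, occurs on either strand in 7.04% of the member windows and in 0.97% of all 32851 windows, and the same letters with the fifth base free, which include the exact form, in 25.35% and 4.60%. The ETS letters CCGGAAG, on either strand, occur in 22.54% and 8.86%. The YY1 motif in its exact form occurs in 5.63% and 0.63%, and with 1 base free in 5.63% and 0.99%. A match describes the letters only, and these shares were not tested. The windows below, from the strand of the gene, show 4 of the 5 members with the exact NRF1 form, those where it and the 20 bases on either side lie before the start, because members of different complexes and chromosomes share it, with the match in capitals: Atp5g2 (chr15:102671060-102671109, minus strand), Atp5k (chr5:108434420-108434469, minus strand), Cox6a1 (chr5:115349091-115349140, minus strand) and Ndufa11 (chr17:56717682-56717731, plus strand).
Atp5g2: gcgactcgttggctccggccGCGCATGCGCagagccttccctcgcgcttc
Atp5k: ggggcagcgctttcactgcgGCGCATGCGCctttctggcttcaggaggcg
Cox6a1: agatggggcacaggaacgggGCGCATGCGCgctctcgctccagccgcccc
Ndufa11: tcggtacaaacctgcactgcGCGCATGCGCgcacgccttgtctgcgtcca

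Markers of other cells were summed in each library. For NT-KO against WT in either sex, over both sexes and for the difference between them, edgeR's quasi-likelihood test called 0 genes of the 8 cell type lists below, of which no adipocyte gene passed the filter on low values. In males an unadjusted p under 0.05 was seen for 3 of 7 B lymphocyte genes, 2 of 5 erythroid genes, 2 of 8 sinusoidal endothelial genes and 1 of 5 cholangiocyte genes (11.5% of all tested genes). In females this held for 2 B lymphocyte genes, 1 sinusoidal endothelial gene and 1 of 2 muscle genes (1.54%), and for the difference it held for 6 B lymphocyte and 3 erythroid genes (7.20%). The median log2 fold change in males was 1.61 over the B lymphocyte genes, 7 of 7 higher, and -1.07 over the erythroid genes, 5 of 5 lower. In females these medians were -0.89, with 0 of 7 higher, and 0.43, with 4 of 5 higher. The Kupffer and sinusoidal endothelial genes had medians of 0.27 and 0.26 in males, each with 7 of 8 higher. Their medians in females were -0.02 and -0.10, with 3 and 1 of 8 higher. Of all tested genes, 51.7% were higher in NT-KO males and 50.2% in NT-KO females. DESeq2 called Igkc and Jchain of the B lymphocyte list in males and for the difference (2.35% and 0.472% of all tested genes). The likelihood ratio test called these and Ighm (1.93% and 0.35%), and both called 0 genes of the other cell type lists for these comparisons. Of the 10 hepatocyte genes DESeq2 called Fgb in males (2.35% of all tested genes), and the other tests called 0. Their median for females against males was -0.27 in WT, with 0 called by the quasi-likelihood test. An unadjusted p under 0.05 was seen for 4 of them (27.0% of all tested genes). Over both genotypes that test called Apoc3 as higher (7.81%), and 5 had an unadjusted p under 0.05 (26.9%). The likelihood ratio test called 2 in WT and 2 over both genotypes (13% and 13.4%), and DESeq2 3 and 4 (13.7% and 14.1%). For females against males in WT the quasi-likelihood test called 4 of 5 erythroid genes as lower (Alas2, Hbb-bt, Hbb-bs and Hba-a1, median of the list -1.98) and called Cd79a and Cd79b of the B lymphocyte list as higher, against 6.41% of all tested genes called. In the same comparison all 8 Kupffer and all 8 sinusoidal endothelial genes were higher, with medians of 0.64 and 0.54 and 0 called, and an unadjusted p under 0.05 was seen for 5 and 6 of them (27.0% of all tested genes). The likelihood ratio test called 2 in each list and DESeq2 3 in each (1701 and 1802 of all 13130 tested genes). Of the 5 tested cholangiocyte genes, 4 were higher in this comparison, with a median of 0.52 and 0 called by the quasi-likelihood test. An unadjusted p under 0.05 was seen for 3 of them, and the other tests called Epcam. For females against males over both genotypes, the quasi-likelihood test called Epcam, the muscle gene Acta1, Cd79a and Cd79b as higher (7.81% of all tested genes). It called Jchain of the B lymphocyte list and the erythroid genes Alas2 and Hbb-bt as lower there. For females against males in NT-KO it called Jchain, Igkc and Alas2 as lower (1.86% of all tested genes). The 7 B lymphocyte genes summed to 10.3 and 13.04 CPM in WT males, 46.8 and 74.8 CPM in NT-KO males, 32.1 and 28.7 CPM in WT females, and 13.4 and 16.4 CPM in NT-KO females, with Ighm as the most abundant. The 6 erythroid genes summed to 948 and 445 CPM in WT males, 373 and 371 CPM in NT-KO males, 185 and 180.5 CPM in WT females, and 321 and 171 CPM in NT-KO females, with Hbb-bs as the most abundant. The 8 Kupffer cell genes summed to 171 and 262 CPM in WT males, 296 and 225 CPM in NT-KO males, and 312 to 373 CPM in females, with Clec4f as the most abundant. The 8 stellate cell genes ranged from 237 to 322 CPM, the 8 sinusoidal endothelial genes from 152 to 285 CPM and the 6 cholangiocyte genes from 26.8 to 60.2 CPM, with Dcn, Clec4g and Spp1 as the most abundant. The 8 muscle genes summed to at most 6.99 CPM, with Mylpf on top, and the 6 adipocyte genes to at most 1.23 CPM, with Cfd on top. None of these genes was at 0 in every library. The 4 nuclear-retained RNAs, watched as a sign of RNA quality, summed to between 1453 CPM in NT-KO male replicate 1 and 2085 CPM in WT male replicate 2, with Malat1 as the most abundant. Of these RNAs, Snhg11 was called for NT-KO against WT in males by the likelihood ratio test and DESeq2 (1.93% and 2.35% of all tested genes) but not by the quasi-likelihood test. For females against males the quasi-likelihood test called Snhg11 as lower in NT-KO (1.86% of all tested genes) and over both genotypes (7.81%). The likelihood ratio test and DESeq2 called it in NT-KO (3.56% and 3.66%), over both genotypes (13.4% and 14.1%) and in WT (13% and 13.7%). The clock gene Arntl, which follows the hour of collection, was at 4.16 and 4.10 CPM in WT males and at 0.544 to 1.91 CPM elsewhere, and of 14 clock genes 7 had an unadjusted p under 0.05 for NT-KO against WT in males, against 11.5% of all tested genes. Of the 14, edgeR's quasi-likelihood test called 0, the likelihood ratio test 1 (Dbp, with 1.93% of all tested genes called) and DESeq2 3 (Cry1, Dbp and Per3, with 2.35% called). For females against males in WT the quasi-likelihood test called 5 of them, Per3, Arntl, Clock, Dbp and Cry1 (6.41% of all tested genes). The part of these in the values of the OXPHOS genes was not tested.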

How the data were processed

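RNA-seq of 8 liver libraries (2 per group) was analysed from the counts deposited by the authors, whole numbers of reads per Ensembl gene without normalization or filter. Per the study's methods and processing notes, reads were trimmed with cutadapt, aligned to GRCm38 with STAR 2.6.1a and counted with featureCounts. The strand setting and the handling of reads with several positions were not given in the sources used here. Columns were matched to samples by their labels, and 0 were left unused. Symbols, biotypes, positions and lengths came from GENCODE M21 (49412 IDs matched, 259 did not), promoters from RefSeq.

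CPM was scaled by TMM factors (0.926 to 1.06). Genes with at least 1 CPM in 2 libraries were kept, without rRNA, miRNA and mitochondrial rRNA and tRNA but with the 13 mitochondrial protein-coding genes. A quasi-likelihood model (edgeR 4.0.16, R 4.3.3) with 4 group means was fitted to all 8 libraries and 7 contrasts were tested, two-sided, with Benjamini-Hochberg adjustment over 13130 genes and a call at 0.05. Standard errors are the log2 fold change over the square root of F, and intervals cover 95%. The fit was tested on simulated data. DESeq2 1.42.0 served as an alternative, with the others named in the closing section. Pseudogene rows with at least 50% of their 50-base stretches in a member were pooled with it as an added alternative.

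Members, lists and tests were chosen with earlier results of these data known. Named are all mitochondrial members, the 3 members with the smallest p per comparison, the isoforms, X-linked members, a core subunit per complex, the highest and lowest levels, at most 3 called genes per list, and set regulators and check genes. Others were named after their values were seen. The result of 1 marker gene is not reported here. The labels name no batch. Replicates differed by far more than sampling noise (chi-square per degree of freedom over members from 124 to 1151), so no pair was taken as 1 library deposited more than once, which does not tell whether the libraries come from separate animals. Counts give counting precision only.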

Additional observations from a re-analysis of the deposited data

How the results depend on the processing

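Of 262 values of the 19 main results under the alternatives, 231 moved by less than the spread between replicates or kept their count. No member was called under the likelihood ratio test, RLE size factors, scaling on nuclear genes, no filter or filterByExpr. The same held for robust dispersion, 4 libraries alone and pooled pseudogene rows. Stricter calls could only give 0, since the main call gave 0. With 4 libraries alone, 0 of all 13130 tested genes were called for NT-KO against WT in either sex, and 683 for females against males in WT. For NT-KO against WT in males, the likelihood ratio test called 254 of all 13130, RLE size factors 2, and no filter 917 of 29737. In females these counts were 11, 1 and 194. For females against males in WT they were 1701, 838 and 2664. For females against males, DESeq2 called 2 members in WT and 1 over both genotypes (13.7% and 14.1% of all tested genes), and library size only called 2 and 3 (1316 and 1498 of all 13130).

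The mitochondrial minus nuclear median in females against males was -0.30 in WT, 0.04 in NT-KO and -0.15 over both genotypes. Without mt-Co2, mt-Co3, mt-Atp6 and mt-Atp8 (left out after seeing the data) it was -0.36, 0.13 and -0.089, and with pseudogene rows pooled -0.16 in WT and -0.094 over both. Pooling gave log2 ratios of the sums of 3.00, 2.89, 2.93 and 2.98 in WT males, NT-KO males, WT females and NT-KO females. The log2 ratio of median TPM between the genomes was 5.15 with the exon length and 4.37 with the longest transcript as length.

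With 1 library left out (a lone library is assumed to vary like the other groups), the mitochondrial minus nuclear median ranged from -0.27 to -0.11 for NT-KO against WT in males, 0.068 to 0.19 in females, -0.10 to 0.0077 over both sexes and 0.18 to 0.34 for the difference. It ranged from -0.39 to -0.24 for females against males in WT, -0.16 to 0.045 in NT-KO (negative without NT-KO male replicate 1) and -0.20 to -0.057 over both. The ratios of the sums ranged from 2.00 to 2.08, 1.69 to 2.06, 1.81 to 1.92 and 1.95 to 2.05.

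Signs turned for Ndufs5 over both sexes with pseudogene rows (0.037) and for Cox7b in males with library size only (0.019). Leave-one-out ranges that crossed 0 in males were -0.34 to 0.34 for Ndufs1, -0.35 to 0.070 for Sdha, -0.54 to 0.16 for Uqcrc2, -0.20 to 0.29 for Cox4i1, -0.088 to 0.21 for Ndufa1, -0.13 to 0.18 for Ndufb11 and -0.19 to 0.10 for Cox7b. In females they were -0.20 to 0.061 for Cox4i1, -0.38 to 0.10 for Ndufa1, -0.31 to 0.041 for Ndufb11 and -0.26 to 0.055 for Cox7b. Causes were not tested.

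By the labels same-numbered samples have only a number in common, and whether they share a batch was not tested. Their deviations correlated at -0.01 between male WT and NT-KO, 0.03 in females, -0.20 between the WT sexes and 0.11 between the NT-KO sexes. With the replicate block 0 members were called, and all 51 values computed with it kept their direction and call, or moved by less than the spread between replicates. With 2 libraries a group, the interval of a member's fold change in 1 sex reached a median of 0.43 log2 units to either side.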
